A study of Mus musculus with 77 samples.

Results

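The measurement described here is a difference of 2 ratios: how far an RNA was raised or lowered in pull-down libraries relative to input libraries of VsWAT, minus the same ratio in GAS. It rests on 24 of the 77 libraries of the series, namely every library whose labels give small RNA of VsWAT or GAS. They form 8 groups of 3: VsWAT pull-down on HFD and on LFD, VsWAT input on HFD and on LFD, and the same 4 groups of GAS. VsWAT and GAS are the labels' own abbreviations, read here as visceral white fat and gastrocnemius muscle, and the adipocyte and skeletal muscle markers were high in the libraries so labelled. The series set labelled RNA recovered by pull-down against input RNA in liver, kidney, plasma, fat and muscle of mice on high-fat (HFD) or low-fat food (LFD).

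Every group shares the same genotype. The strain, of FVB background, carries a targeted Cyp3a13 allele, a deletion that spans Cyp3a57 to Cyp3a59, and the transgene APOE-CYP3A4, a human drug-metabolising enzyme named with APOE sequences that are known for expression in hepatocytes. Per the series text, the animals were males of 12 weeks that ate HFD or LFD for 2 weeks. The chemistry of the label and the steps of the pull-down are not given, and no source used here says whether the 3 libraries of a group came from separate mice, so p-values measure the spread between libraries, which may be technical. In such an experiment RNA that took up the label is recovered from total RNA, and the pull-down can also hold RNA that bound without label. White fat stores triglyceride in adipocytes and secretes hormones, while the gastrocnemius is a limb muscle made of multinucleate fibres, with fibroblasts, vessels, nerve and some fat between them.

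The count total assigned to features was 1867345 to 2580104 in VsWAT pull-down, 881578 to 2220123 in VsWAT input, 1643420 to 2486106 in GAS pull-down and 849006 to 2315092 in GAS input. The 10 adipocyte markers together took 24580 to 42170 CPM (assigned counts scaled to a common library total) in VsWAT pull-down and 12940 to 19260 in VsWAT input, against 1390 to 3389 in GAS pull-down and 1042 to 2512 in GAS input. The 10 skeletal muscle markers took 16.3 to 111 CPM in VsWAT pull-down and 27.6 to 96.4 in VsWAT input, against 50680 to 81460 in GAS pull-down and 38570 to 67980 in GAS input. VsWAT input libraries HFD 1 and HFD 2 differed little beyond sampling noise (chi-square of 1.53 per degree of freedom, where the next closest pair had 3.94), and summing them gave 1320 calls in the difference of enrichment. The VsWAT libraries HFD 1, HFD 2 and LFD 1 stood apart in hepatocyte markers in both fractions, as given with the liver genes below, and are called the 3 VsWAT pairs high in Alb. Calls of named genes that were lost without these pairs are given beside the genes. Runs without both fractions of these pairs keep 1 VsWAT library of HFD per fraction and so have less power. The log2 differences of the genes that lost their call grew in some cases and shrank in others. Whether a call was lost through the content of the pairs or through the fewer libraries was not tested.

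Of 55273 features in the files, 12454 passed the filter on low counts and were tested, and 1522 of them (12.2%) differed in enrichment between VsWAT and GAS at a Benjamini-Hochberg adjusted p under 0.05 in edgeR's quasi-likelihood test. The difference was above 0 for 880 features (7.07%), whose pull-down over input ratio was higher in VsWAT, and below 0 for 642 (5.15%). This fit did not pair libraries. Taking same-numbered input and pull-down libraries as pairs (a replicate block) gave 2006 calls, 1463 of them among the 1522. Scaling to total assigned counts in place of TMM gave 1501 calls split the other way, 487 above and 1014 below 0, as it moved the median difference of all features to -0.20 from 0.04 on the log2 scale. Pull-down against input called 4969 features in VsWAT (39.9%, 20.4% higher and 19.5% lower) and 6226 in GAS (50%, 25.1% higher and 24.9% lower), and across all tested features the enrichment in VsWAT and in GAS correlated at r = 0.70 (Spearman's rho 0.63), a description across features that are not independent. Without both fractions of VsWAT HFD 1, HFD 2 and LFD 1, 541 features were called in the difference, of which 497 were among the 1522, and 46 of 92 named genes kept their call.

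**Figure D1:**
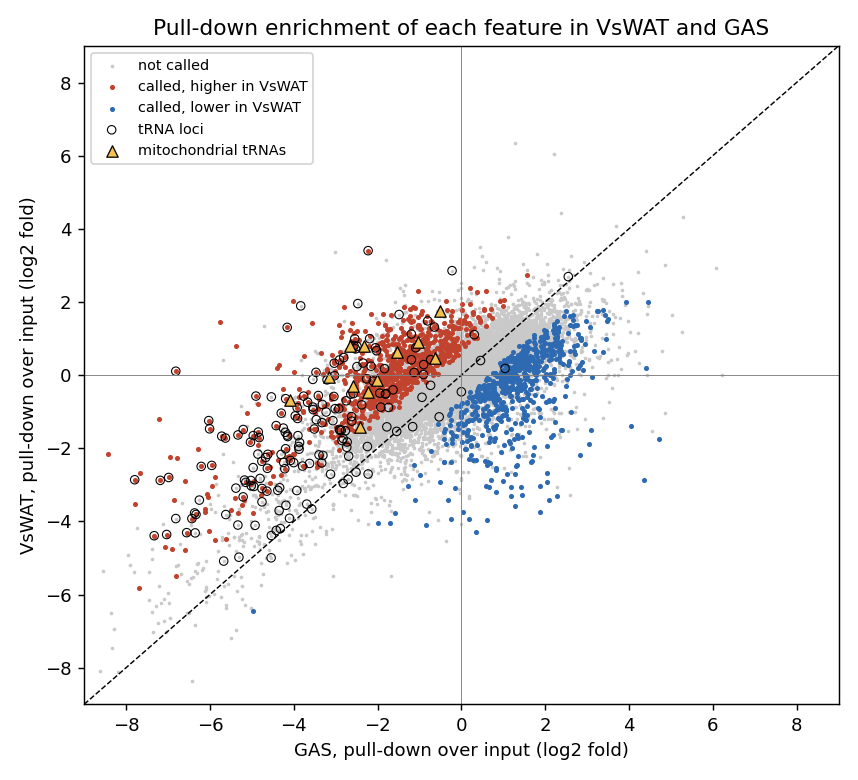
Pull-down over input on a log2 scale in GAS (x axis) and VsWAT (y axis), 1 point per tested feature. Red points, above the dashed line of equal enrichment, were called higher in VsWAT (880) and blue points, below it, lower (642), open circles are tRNA loci and triangles mitochondrial tRNAs, and 5 features lie beyond the axes.

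In each direction, features called in GAS and not in VsWAT made up the largest of the patterns below. Among the 880 features above 0, 393 (44.7%) were lower in pull-down than in input in GAS and not called in VsWAT, 202 (23%) were lower in both tissues, 137 (15.6%) were higher in VsWAT and not called in GAS, and 123 (14%) were higher in VsWAT and lower in GAS. Among the 642 below 0, 305 (47.5%) were higher in pull-down in GAS and not called in VsWAT, 125 (19.5%) were higher in both, 106 (16.5%) were lower in VsWAT and not called in GAS, and 87 (13.6%) were lower in VsWAT and higher in GAS. The difference of enrichment is also the difference between the tissues in pull-down minus that in input. VsWAT minus GAS called 6927 features in pull-down (55.6%, of all features 28.7% higher and 26.9% lower) and 3574 in input (28.7%, 12.9% higher and 15.8% lower).

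The RNAs more enriched in a tissue's pull-down were largely those that the tissue held more of. In 12 input libraries of total RNA from the same tissues (3 per tissue and diet), 9071 of 13622 features (66.6%) differed between VsWAT and GAS, 30.1% higher and 36.5% lower in VsWAT. Of the 790 called features above 0 that total RNA also measured, 628 (79.5%) were higher in VsWAT total RNA and 44 (5.57%) lower. Of the 636 below 0, 22 (3.46%) were higher in VsWAT total RNA and 546 (85.8%) lower. Over all 11687 features measured in both, 31.3% were higher and 38.7% lower.

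The relation was graded across the range of total RNA differences. Features at least 4 log2 units lower in VsWAT total RNA had a median difference of enrichment of -1.16 (491 features), those between 1 and 2 log2 units lower had -0.43 (1446 features), those between 1 and 2 units higher had 0.71 (1544 features) and those over 4 units higher had 1.11 (173 features). In the last of these bins the tissues differed by a median of 4.80 log2 units in pull-down and 3.86 in input, and in the first by -6.61 in pull-down and -5.64 in input. The difference of enrichment correlated with the total RNA difference at r = 0.47 (rho 0.54), the input difference at r = 0.89 and the pull-down difference at r = 0.93, each a description across the 11687 features.

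**Figure D2:**
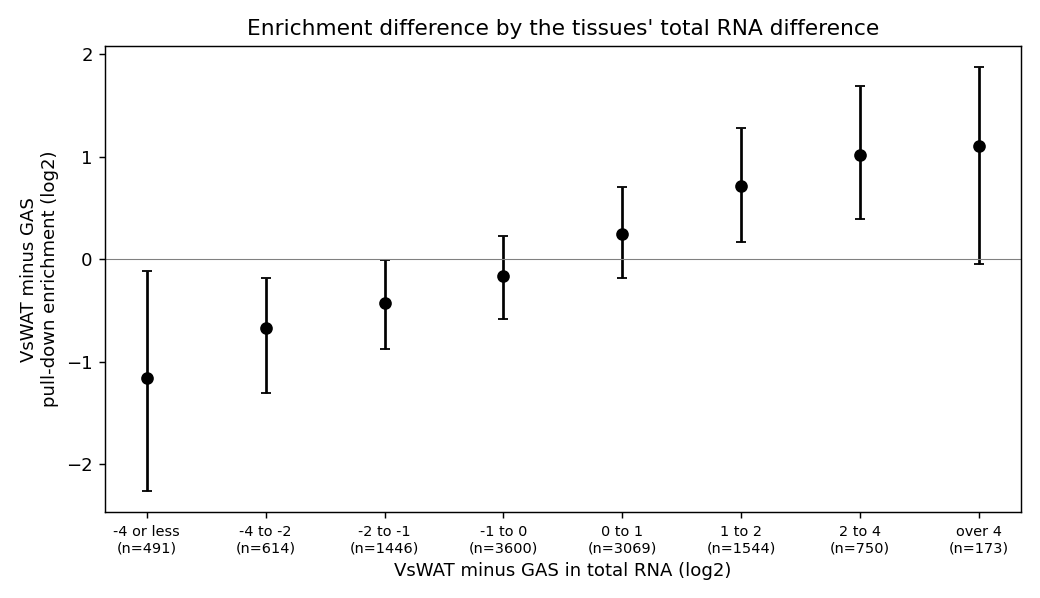
Median difference of enrichment, VsWAT minus GAS on a log2 scale (y axis), in 8 bins of the VsWAT minus GAS difference in total RNA (x axis, log2, with the number of features), and bars from the lower to the upper quartile. The medians run from -1.16 in the lowest bin to 1.11 in the highest, and cross 0 between the 2 middle bins.

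Among the 12 largest differences above 0, genes of matrix and cell surface stood beside small RNAs. Levels from here on are CPM after TMM scaling, as lowest, median and highest of 6 libraries, and differences are log2 values ± SE. Thbs1 (chromosome 2, 118111876 to 118127133 on GRCm38.p6) encodes thrombospondin 1, a secreted matrix protein that binds cells and latent TGF-beta. It had 84.1, 569 and 972 CPM in VsWAT pull-down and 87.4, 253 and 341 in VsWAT input, against 37.8, 50.0 and 58.8 in GAS pull-down and 180, 238 and 382 in GAS input. In GAS the fractions did not overlap, while in VsWAT they did, through the pull-down of LFD 3, whose input was also the lowest. Enrichment was 1.20 ± 0.29 in VsWAT and -2.31 ± 0.31 in GAS, a difference of 3.51 ± 0.42 (adjusted p = 7e-06). Its relative Thbs2 had the same pattern, at 1.44 ± 0.27 in VsWAT and -1.98 ± 0.28 in GAS (difference 3.41 ± 0.39).

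Apcdd1 (chromosome 18, 62922327 to 62953815), a membrane-bound inhibitor of Wnt signalling, had 38.4, 46.2 and 71.2 CPM in VsWAT pull-down and 21.7, 33.4 and 42.8 in VsWAT input, against 1.12, 2.28 and 6.13 in GAS pull-down and 10.6, 20.4 and 41.5 in GAS input. All 6 GAS pull-downs lay below all 6 GAS inputs, and the difference was 3.64 ± 0.37 (adjusted p = 2.3e-07). Dram1, a lysosomal protein of autophagy, was enriched by 1.64 ± 0.19 in VsWAT and -1.69 ± 0.34 in GAS (difference 3.33 ± 0.40). Gata6, a transcription factor of visceral mesothelium and resident macrophages among other cells, stood at 23.2 ± 4.47 CPM in VsWAT pull-down and 22.5 ± 3.41 in VsWAT input, and at 0.527 ± 0.497 in GAS pull-down and 6.02 ± 4.11 in GAS input (SD, n = 6 each). Rad18, a ubiquitin ligase of DNA damage tolerance, was enriched by 2.30 ± 0.27 in VsWAT and not called in GAS (-1.05 ± 0.45, difference 3.34 ± 0.57).

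Limits belong beside 6 of these genes. Lrp3, a receptor of the LDL receptor family, differed by 3.71 ± 0.51, but its locus overlaps Slc7a10, as that of Dram1 overlaps Washc3, and with no strand setting given the reads of overlapping genes cannot be told apart. Gata6 had 7 counts in all GAS pull-downs, with 2 libraries at 0. Gprin3 differed by 3.41 ± 0.91 with 9 counts in all GAS pull-downs, and by 1.25 with the call lost when GAS input HFD 1 was left out. Ehmt2, a histone methyltransferase, differed by 3.51 ± 0.97, with a GAS input range of 16.1 to 1417 CPM. Its call was lost without GAS input HFD 1 (2.14), GAS input LFD 3 (2.45), VsWAT input HFD 1 (3.41) or GAS pull-down LFD 2 (3.37). Rnu5g, a U5 spliceosomal RNA on chromosome 9, led the ranking at 4.06 ± 0.84 and is described with the small RNAs. The calls of Gprin3 (2.97) and Ehmt2 (3.85) were lost without the 3 VsWAT pairs high in Alb.

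**Figure D3:**
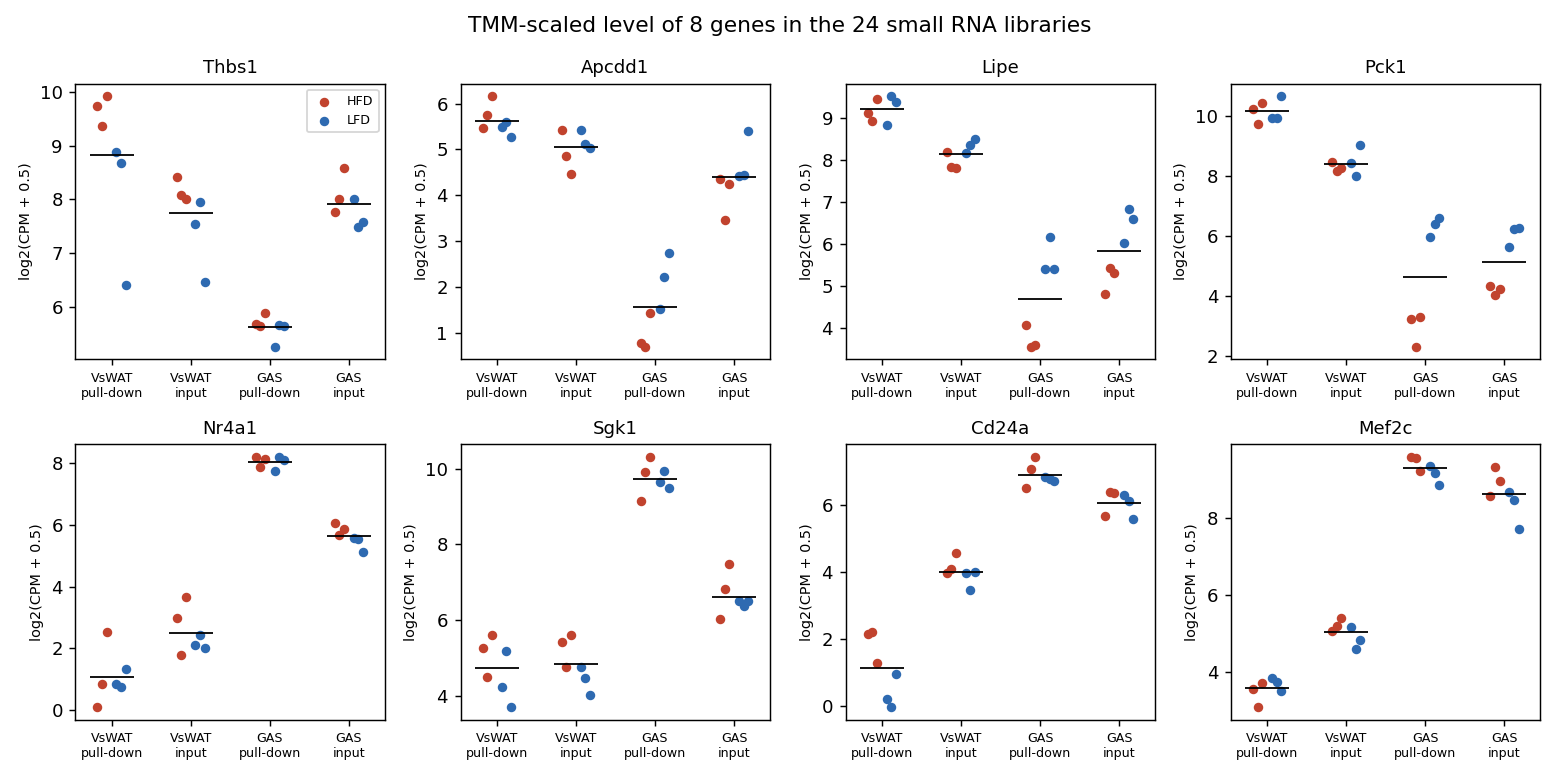
Levels of 8 genes as log2(CPM + 0.5), CPM after TMM scaling, in VsWAT pull-down, VsWAT input, GAS pull-down and GAS input, with HFD in red, LFD in blue and the mean of the 6 log values as a line. Thbs1, Apcdd1, Lipe and Pck1 had a higher pull-down over input ratio in VsWAT (differences of 3.51, 3.64, 2.19 and 2.25), and Nr4a1, Sgk1, Cd24a and Mef2c a lower one (-3.90, -3.17, -4.02 and -2.13).

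The 12 largest differences below 0 were led in size by Adcy2, and included Nr4a1, Sgk1 and Cd24a. Nr4a1 (chromosome 15, 101253902 to 101274795), a nuclear receptor that exercise and adrenergic signals induce in muscle, had 0.568, 1.29 and 5.33 CPM in VsWAT pull-down and 2.94, 4.36 and 12.3 in VsWAT input, against 213, 275 and 292 in GAS pull-down and 34.4, 48.7 and 66.0 in GAS input. Every GAS pull-down lay above every GAS input, whereas the VsWAT fractions overlapped. Enrichment was -1.51 ± 0.37 in VsWAT and 2.39 ± 0.23 in GAS, a difference of -3.90 ± 0.44 (adjusted p = 1.5e-06). Sgk1 (chromosome 10, 21882184 to 21999903), a kinase induced by glucocorticoids and salt stress, had 12.4, 28.9 and 48.2 CPM in VsWAT pull-down and 15.7, 26.6 and 48.2 in VsWAT input, against 563, 883 and 1273 in GAS pull-down and 64.7, 90.1 and 177 in GAS input. It was not called in VsWAT (-0.04 ± 0.27) and was enriched in GAS by 3.13 ± 0.27, a difference of -3.17 ± 0.38.

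Cd24a (chromosome 10, 43579169 to 43584265), a surface glycoprotein found on muscle progenitors among other cells, had the smallest adjusted p of all features below 0. Its levels were 0.476, 1.70 and 4.16 CPM in VsWAT pull-down and 10.5, 15.5 and 23.6 in VsWAT input, against 92.1, 113 and 174 in GAS pull-down and 47.5, 74.1 and 84.4 in GAS input. Neither tissue's fractions overlapped, and they moved in opposite directions, by -3.19 ± 0.28 in VsWAT and 0.83 ± 0.19 in GAS (difference -4.02 ± 0.34, adjusted p = 9.4e-09). Pde4b, which degrades cyclic AMP, was enriched by -1.28 ± 0.45 in VsWAT and 2.24 ± 0.33 in GAS (difference -3.52 ± 0.56). A further 2 genes of the same ranking were lower in VsWAT pull-down and not called in GAS, on few counts. Adcy2, an adenylyl cyclase, had 6 counts in VsWAT pull-downs, with 4 libraries at 0, and 57 in VsWAT inputs (difference -4.64 ± 0.54). Nos1, the nitric oxide synthase of neurons and muscle fibres, had 8 counts in VsWAT pull-downs, with 2 libraries at 0, and 50 in VsWAT inputs (difference -3.80 ± 0.54).

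The remaining members of this ranking also had few VsWAT counts. VsWAT pull-downs held 19 counts of Prr33, 13 of Igdcc4, 5 of Tmem117, 4 of Wfdc1, 5 of Kcnq5 and 21 of Epdr1 over 6 libraries, and VsWAT inputs held 7 to 41 of each. Their differences ran from -4.02 ± 0.46 for Prr33, which overlaps the muscle troponin gene Tnnt3, to -3.21 ± 0.53 for Epdr1. Without the 3 VsWAT inputs high in Alb, the calls of Tmem117 and Wfdc1 were lost, and without both fractions of these pairs that of Wfdc1 (-4.03).

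Fat cell genes were among the RNAs with the higher ratio in VsWAT. Of 21 adipocyte genes, all tested, 7 were higher and none was lower, with a median difference of 0.82, where 7.07% of all features were higher and their median was 0.04. Lipe (chromosome 7, 25379527 to 25398486), the hormone-sensitive lipase, had 454, 609 and 731 CPM in VsWAT pull-down and 223, 287 and 360 in VsWAT input, against 11.2, 28.9 and 71.0 in GAS pull-down and 27.4, 53.0 and 112 in GAS input. VsWAT pull-downs all lay above VsWAT inputs, GAS fractions overlapped, and the difference was 2.19 ± 0.28. Plin1 and Cidec, which coat lipid droplets, differed by 1.84 ± 0.31 and 1.80 ± 0.31. Cebpa, a transcription factor of adipocyte differentiation, differed by 1.91 ± 0.40, and its call was lost without the 3 VsWAT pairs high in Alb. Adipoq, the adipocyte hormone adiponectin, was lower in pull-down than in input in both tissues (-0.65 ± 0.21 in VsWAT, -1.25 ± 0.24 in GAS) and was not called in the difference (0.60 ± 0.32, adjusted p = 0.24). For the levels of these genes in GAS, fewer fat cells and less RNA per fat cell cannot be told apart. Whether the cell content of GAS also bears on the ratio of pull-down to input was not tested.

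Of 18 lipogenic genes, all tested, 5 were higher, against 7.07% of all features, and none was lower, with a median of 1.00. Srebf1, the transcription factor that drives lipogenic genes, had 103, 150 and 200 CPM in VsWAT pull-down and 20.8, 49.4 and 78.6 in VsWAT input, against 11.5, 32.0 and 37.8 in GAS pull-down and 16.1, 34.9 and 41.5 in GAS input. VsWAT pull-downs stood above all VsWAT inputs while the GAS fractions covered the same range (difference 1.85 ± 0.33, adjusted p = 0.00041). Gpam, the first enzyme of glycerolipid synthesis, differed by 1.34 ± 0.28. Fasn, the fatty acid synthase, and Scd2, a desaturase, were not called in VsWAT (-0.78 ± 0.33 and -0.03 ± 0.23) and were lower in GAS pull-down (-2.60 ± 0.37 and -1.33 ± 0.26), with differences of 1.81 ± 0.49 and 1.30 ± 0.35. The call of Fasn was lost without GAS input HFD 1 (1.39) and, like that of Scd2, under total-count scaling. Without GAS input HFD 1, 4 adipocyte and 3 lipogenic genes were called, and with the diets pooled into 4 groups 2 of each were. When libraries were scaled to total counts, 6 of the adipocyte genes were called above 0 and 1 below. Without the 3 VsWAT pairs high in Alb, 4 adipocyte and 4 lipogenic genes were called, and Fasn (2.12) and Scd2 (1.07) were not.

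Of 17 matrix genes of fibroblasts, all tested, 3 were higher, against 7.07% of all features, and none was lower. The count was 5 without GAS pull-down LFD 3, 2 without the 3 VsWAT pairs high in Alb, where Col6a1 lost its call (1.44), and 1 without their inputs alone. All 3 encode collagen chains (1 of them called under total-count scaling), Col5a1 at 1.36 ± 0.28, Col6a1 at 1.30 ± 0.32 and Col6a2 at 1.36 ± 0.33. The matrix genes were lower in pull-down than in input in both tissues, 16 of 17 in VsWAT and 17 of 17 in GAS, with medians of -1.73 and -2.27. Col6a1, for example, was at 114 ± 40.8 CPM in VsWAT pull-down and 293 ± 53.8 in VsWAT input, and at 20.9 ± 9.64 in GAS pull-down and 134 ± 43.5 in GAS input (SD, n = 6 each). Pmp22 and Mbp, proteins of the myelin sheath that Schwann cells form, were called higher at 1.85 ± 0.23 and 1.79 ± 0.37. They were 2 of the 5 nerve genes tested, where 7.07% of all features were higher, and the difference was above 0 for 3 of the 5. In pull-down the 5 genes had a median of -0.78 for VsWAT minus GAS. Pmp22 went the other way, at 123 ± 55.3 CPM in VsWAT pull-down and 24.2 ± 5.1 in GAS pull-down (SD, n = 6 each). None of 14 endothelial genes was called (median 0.07), and both tissues had them lower in pull-down (14 in VsWAT, 12 in GAS). Of 18 macrophage and leukocyte genes, Csf1r alone was called (0.87 ± 0.26), and its call was lost in 8 of 24 runs that left out 1 library, with values of 0.74 to 1.02, and without the 3 VsWAT pairs high in Alb (1.03).

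Liver genes set the VsWAT libraries apart from each other. The 10 hepatocyte markers summed to 1446, 1934 and 54.0 CPM of assigned counts in VsWAT pull-downs HFD 1 to 3 and 1007, 154 and 157 in LFD 1 to 3, and to 1087, 1568 and 192 in VsWAT inputs HFD 1 to 3 and 1683, 231 and 376 in LFD 1 to 3. Replicates HFD 1, HFD 2 and LFD 1 were thus the highest in both fractions. GAS held 0.452 to 6.09 CPM in pull-down and 1.14 to 31.5 in input, with 6 and 9 of the 10 markers detected. Of 26 hepatocyte genes 25 were tested, 2 were higher, a share near the 7.07% of all features, and none was lower, with a median of 1.52, and all 25 were higher in VsWAT than in GAS pull-down.

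The 2 called genes, Pck1 and Cyp2e1, are also expressed by fat cells. Pck1, which makes phosphoenolpyruvate for glucose and glycerol synthesis, had 843, 1092 and 1622 CPM in VsWAT pull-down and 254, 327 and 526 in VsWAT input, against 4.49, 35.6 and 95.6 in GAS pull-down and 15.8, 34.7 and 77.1 in GAS input (difference 2.25 ± 0.34, adjusted p = 4.4e-05). Cyp2e1, a cytochrome P450, differed by 2.36 ± 0.57, with the call lost without GAS input HFD 1 (1.96) and without the 3 VsWAT pairs high in Alb (2.98), so that 1 gene of the list was called in each of these runs. Alb, the albumin gene, averaged 306 ± 293 CPM in VsWAT pull-down and 473 ± 365 in VsWAT input (SD, n = 6 each), with 24 counts in all GAS pull-downs and 75 in all GAS inputs, and was not called (1.69 ± 1.76, adjusted p = 0.62). Liver small RNA libraries held 22450 to 34670 CPM of assigned counts of Alb in pull-down and 17480 to 43000 in input. Mir122, the abundant hepatocyte microRNA, had 255 counts in VsWAT pull-downs and 316 in VsWAT inputs, against 4 in GAS pull-downs and 5 in GAS inputs, too few in GAS for a fold. The part that liver RNA in these 3 VsWAT pairs has in any difference was not tested beyond the runs without them.

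Muscle regulators stood at the other end. Of 22 myogenic regulator and muscle signalling genes 18 were tested, 5 were lower and none was higher, with a median of -1.997, where 5.15% of all features were lower. The count was 3 without VsWAT input HFD 1 and 3 without the 3 VsWAT pairs high in Alb. In VsWAT 3 of the 18 were higher and 2 lower in pull-down than in input (median -0.39), while in GAS 16 were higher (median 1.67). Mef2c (chromosome 13, 83504017 to 83667079), a transcription factor of muscle fibres, had 8.01, 12.0 and 13.98 CPM in VsWAT pull-down and 23.9, 34.1 and 41.6 in VsWAT input, against 457, 619 and 761 in GAS pull-down and 206, 393 and 639 in GAS input. The VsWAT fractions did not overlap and the GAS fractions did, and the difference was -2.13 ± 0.27 (adjusted p = 7e-06). Fbxo32, the muscle ubiquitin ligase atrogin-1, was not called in VsWAT (-0.12 ± 0.25) and was enriched by 1.76 ± 0.22 in GAS (difference -1.88 ± 0.33).

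Nr4a3, a relative of Nr4a1, differed by -2.66 ± 0.75, and its call was lost without VsWAT input HFD 1 (-2.51), VsWAT input HFD 3 (-2.56) or VsWAT input LFD 2 (-2.55), and without the 3 VsWAT pairs high in Alb (-2.66). Other muscle RNAs were called with almost no VsWAT counts, so no fold is given. Myf6, a myogenic transcription factor, had 0 counts in VsWAT pull-downs and 4 in VsWAT inputs, against 6384 in GAS pull-downs and 104 in GAS inputs. Its call was lost without VsWAT input HFD 3. Mylk4, a kinase, had 0 and 5 counts in VsWAT pull-downs and inputs, against 30627 and 2060 in GAS pull-downs and inputs. Asb5 had 3 and 3 counts in VsWAT pull-downs and inputs, against 9262 and 195 in GAS pull-downs and inputs.

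Of 28 contractile and calcium-handling genes, all tested, 2 were lower, a share near the 5.15% of all features, and none was higher (median -0.79). The count was 1 to 5 when 1 library was left out (1 without VsWAT input HFD 1 and 5 without VsWAT pull-down HFD 2), moved by over 1.5 times in 12 of 24 runs, and was 0 without the 3 VsWAT pairs high in Alb. In GAS 1 was higher and 10 lower in pull-down than in input. Atp2a1, the calcium pump of fast fibres, was called at -2.32 ± 0.74, and lost its call in 14 of 24 runs that left out 1 library (-3.15 to -2.02). It rests on 6 counts in VsWAT pull-downs, with 4 libraries at 0, and 18 in VsWAT inputs. Acta1, skeletal muscle actin, averaged 25.5 ± 19.3 CPM in VsWAT pull-down and 21.6 ± 16.0 in VsWAT input, against 4532 ± 821 in GAS pull-down and 8476 ± 2638 in GAS input (SD, n = 6 each), and was not called (1.18 ± 0.67, adjusted p = 0.28). Ckm, muscle creatine kinase, had 2 counts in VsWAT pull-downs and 10 in VsWAT inputs, and was not called either (adjusted p = 0.24).

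Nuclear genes of the respiratory chain were lower as a group in count and in median. Of 75 such genes 74 were tested, 14 were lower, against 5.15% of all features, and none was higher, and the difference was below 0 for every one of the 74 (median -0.69). In VsWAT 5 were higher and 23 lower in pull-down, where 20.4% and 19.5% of all features were, and in GAS 25 were higher and 7 lower, where 25.1% and 24.9% were. Uqcrfs1, the iron-sulfur protein of complex III, had 32.5, 46.0 and 69.9 CPM in VsWAT pull-down and 43.6, 49.6 and 72.5 in VsWAT input, against 148, 256 and 340 in GAS pull-down and 75.9, 117 and 127 in GAS input. GAS pull-downs lay above all GAS inputs and the VsWAT fractions overlapped (difference -1.29 ± 0.31). Sdhc, a subunit of complex II, differed by -1.17 ± 0.29 and Atp5l of the ATP synthase by -1.85 ± 0.41. The count depended on the setting, from 2 without the 3 VsWAT pairs high in Alb, where Uqcrfs1 (-1.54) and Sdhc (-1.20) lost their calls, to 43 under total-count scaling, all of them lower. Leaving out 1 library at a time gave 5 (without VsWAT input LFD 3) to 24 (without VsWAT pull-down LFD 3), with a change by over 1.5 times in 16 of 24 runs.

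Other lists held 5 calls or fewer each, where 7.07% of all features were higher and 5.15% lower. Of 17 clock genes 3 were higher and 2 lower, among them Nr1d1 at 1.57 ± 0.35 and its paralog Nr1d2 at -1.23 ± 0.23, nuclear receptors that repress transcription in the clock. Nr1d2 was higher in pull-down than in input in both tissues, by 1.00 ± 0.16 in VsWAT and 2.24 ± 0.17 in GAS, whereas Nr1d1, which overlaps Thra, was lower in GAS alone (-1.04 ± 0.26). Of 19 immediate early genes 2 were higher and 3 lower, the lower ones led by Nr4a1 and Ier3 (-2.15 ± 0.60, and -3.46 without GAS input HFD 1). Pik3r1, a regulatory subunit of phosphoinositide 3-kinase, was called at 1.16 ± 0.25 and Foxo4, a forkhead factor downstream of insulin, at -1.23 ± 0.34, 2 of 15 insulin signalling genes. Zfp36l2, which destabilises messenger RNAs, was called at 1.72 ± 0.33. Hist1h1c, a linker histone gene, was called at -1.75 ± 0.27, with -0.58 ± 0.19 in VsWAT and 1.17 ± 0.19 in GAS. Of 17 glycolysis genes Hk1 was higher (1.47 ± 0.44) and Ldhb lower (-0.86 ± 0.29), and of 37 proteasome genes Psmb1 (-0.92 ± 0.24) and Psmb6 (-0.94 ± 0.28) were lower. Calls of Hk1, Ldhb and Psmb6 were lost in 8, 17 and 4 of the 24 runs. Without the 3 VsWAT pairs high in Alb, the calls of Nr1d1 (1.55), Ier3 (-2.44), Pik3r1 (1.20), Foxo4 (-1.02), Hk1 (1.501), Ldhb (-0.92), Psmb1 (-0.84) and Psmb6 (-1.23) were lost. Muc16, a surface mucin of mesothelium, was the 1 gene called of 7 mesothelial genes, on 359 counts in VsWAT pull-downs and 518 in VsWAT inputs, against 57 in GAS pull-downs and 1 in GAS inputs, too few for a fold, and the 3 mesothelial markers were at 0 in GAS pull-downs. No gene was called among 14 heat shock, 15 fatty acid oxidation, 7 brown fat, 4 globin and 9 pancreatic acinar genes. Of 79 ribosomal protein genes 2 were higher, Rpl10 (1.68 ± 0.32), whose locus holds Snora70, and Rpl28, whose call was lost in 16 of 24 runs that left out 1 library (1.00 to 1.53) and without the 3 VsWAT pairs high in Alb (0.68).

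**Figure D4:**
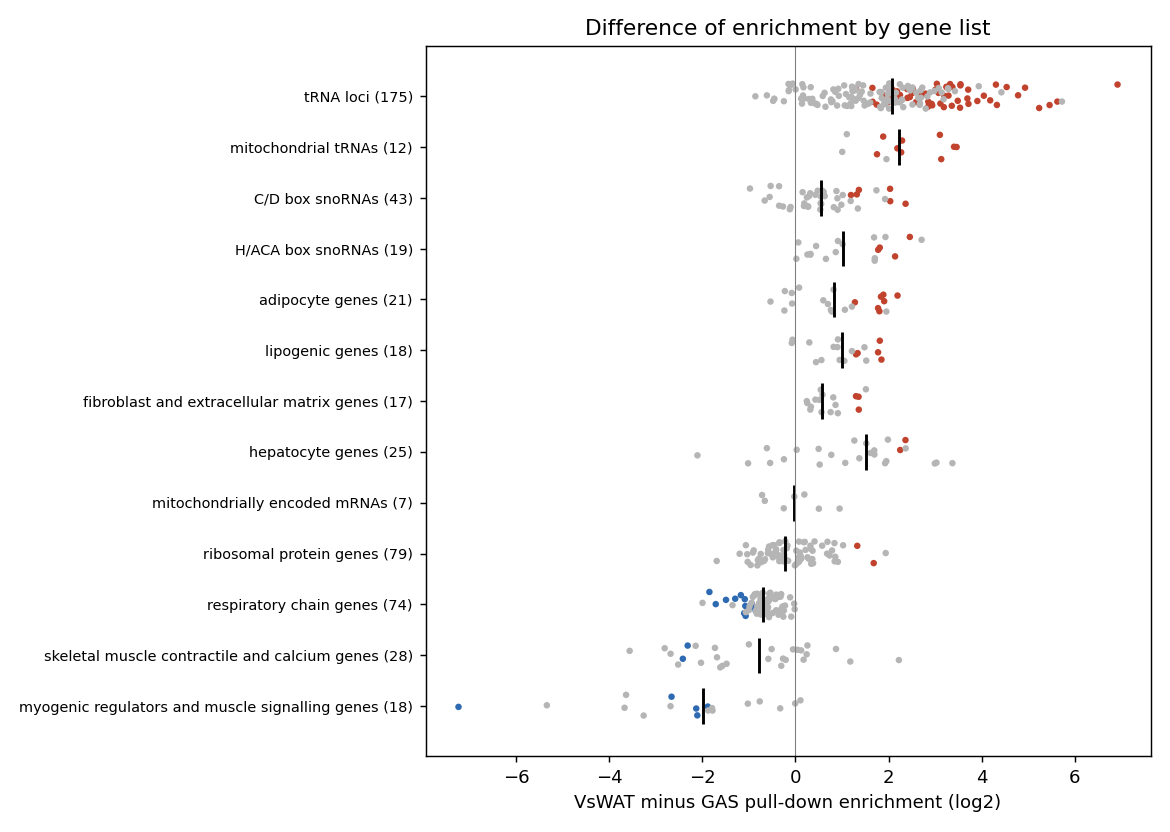
Difference of enrichment, VsWAT minus GAS on a log2 scale (x axis), of every tested member of 13 lists (numbers tested in brackets), with called members in red (higher) or blue (lower), others in grey and the list's median as a black line, where the outermost points rest on fractions with under 4 counts. tRNA loci and mitochondrial tRNAs have medians of 2.08 and 2.23, respiratory chain genes -0.69 and myogenic regulators -1.997.

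Transfer RNA loci were the list with the most calls. Cytosolic tRNAs carry amino acids to the ribosome and are also cut into fragments that small RNA libraries capture. Of 435 loci in the files 175 were tested, 61 were higher, against 7.07% of all features, none was lower and 164 had a difference above 0, with a median of 2.08. They were lower in pull-down than in input in both tissues, 94 of the 175 in VsWAT (19.5% of all features) and 141 in GAS (24.9% of all features), with medians of -1.52 and -3.62. Calls spread over 20 of the 21 isotypes with a tested locus, among them 9 of 16 leucine, 6 of 14 arginine and 5 of 14 glycine loci. All arginine loci together had 1156 ± 931 CPM in VsWAT pull-down and 28050 ± 9383 in VsWAT input, and 855 ± 624 in GAS pull-down and 30160 ± 7009 in GAS input (SD, n = 6 each). Glycine loci had 137 ± 112 CPM in VsWAT pull-down and 233 ± 41.8 in VsWAT input, and 54.4 ± 34.5 in GAS pull-down and 407.5 ± 83.1 in GAS input. Copies of a tRNA gene can share reads, so a single locus is uncertain.

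A serine locus on chromosome 19, chr19.tRNA713-SerGCT, illustrates the pattern. Its counts were 369 in VsWAT pull-downs and 3352 in VsWAT inputs, against 112 in GAS pull-downs and 4317 in GAS inputs. It had 6.73, 16.0 and 31.5 CPM in VsWAT pull-down and 260, 338 and 534 in VsWAT input, against 2.21, 9.88 and 14.9 in GAS pull-down and 810, 1046 and 1204 in GAS input. Pull-down lay far below input in every library of both tissues, by -4.36 ± 0.29 in VsWAT and -7.03 ± 0.33 in GAS (difference 2.67 ± 0.39). That difference averages the diets. The gap between the diets, HFD minus LFD, was not called in the main fit and was 2.97 ± 0.81 by DESeq2 (adjusted p = 0.0482). Without the 3 VsWAT pairs high in Alb, 7 tRNA loci were called, all higher, with a median of 1.07. As a share of assigned counts, tRNA loci made up 0.147% to 1.25% of VsWAT pull-downs and 2.53% to 6.07% of VsWAT inputs, and 0.133% to 0.643% of GAS pull-downs and 1.84% to 4.17% of GAS inputs. Shares fell in pull-down in both tissues (exact permutation, 2-sided, adjusted over 36 tests, p = 0.004585 each, from the smallest p that 6 against 6 can give, 0.00216). Between the pull-downs of the 2 tissues they did not pass (adjusted p = 0.11). The summed share fell by 3.04 log2 units in VsWAT and 3.59 in GAS. That is a difference of 0.55 for the class as a whole, scaled to total assigned counts, against the median of 2.08 over single loci after TMM. These values differ in weighting as well as in scaling, since the median counts every tested locus alike and the sum follows the abundant loci. Arginine loci had the most CPM of any isotype in both inputs, at means of 28050 in VsWAT and 30160 in GAS after TMM.

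Mitochondrial tRNAs, which mitochondria transcribe and process from long precursors, had the highest share of calls among the lists with over 10 tested members. Of 22 genes 12 were tested, 9 were higher, against 7.07% of all features, none was lower and all 12 had a difference above 0 (median 2.23). In VsWAT 1 was higher (mt-Tf) and 1 lower (mt-Tp) in pull-down than in input, and in GAS 9 were lower. Between the tissues, all 12 were lower in VsWAT than in GAS input (median -2.22), where 15.8% of all features were. In pull-down, averaged over the diets, none was higher in VsWAT than in GAS and 1 was lower (median 0.31). This average hides a contrast between the diets. On HFD every VsWAT pull-down held a larger share of these RNAs than every GAS pull-down, while on LFD the shares overlapped. mt-Tl2, a leucine tRNA, had 237, 459 and 1014 CPM in VsWAT pull-down and 426, 631 and 1847 in VsWAT input, against 31.8, 309 and 1184 in GAS pull-down and 2364, 5220 and 7471 in GAS input. The GAS fractions did not overlap and the VsWAT fractions did (difference 3.41 ± 0.61, adjusted p = 0.00085). mt-Ts2 differed by 3.46 ± 0.64, mt-Tc by 3.13 ± 0.57, mt-Ta by 3.10 ± 0.60 and mt-Tf by 2.27 ± 0.48. Without the 3 VsWAT pairs high in Alb 2 of them were called, with a median of 1.599, and with the diets pooled 4 were. The calls lost without the 3 pairs include mt-Tl2 (2.86), mt-Ts2 (2.50), mt-Tc (2.35) and mt-Tt (1.497).

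Mitochondrial tRNAs took 6.31%, 2.46% and 2.22% of assigned counts in VsWAT pull-downs HFD 1 to 3 and 2.72%, 2.06% and 1.29% in LFD 1 to 3, against 1.27%, 1.19% and 1.73% in VsWAT inputs HFD 1 to 3 and 2.89%, 1.25% and 2.34% in LFD 1 to 3. GAS pull-downs held 1.20%, 0.971% and 0.706% on HFD and 2.01%, 2.69% and 4.93% on LFD, against 4.06%, 4.09% and 3.95% in GAS inputs on HFD and 3.82%, 5.26% and 2.78% on LFD. Every GAS pull-down on HFD lay below every GAS pull-down on LFD, while the VsWAT pull-downs of the diets overlapped. Its share fell in GAS pull-down (adjusted p = 0.0325, exact permutation), a call lost without any 1 of GAS inputs HFD 1, HFD 2, HFD 3, LFD 1 and LFD 2 (adjusted p of 0.053 to 0.0748), and in VsWAT the test was not passed (adjusted p = 0.196). Between the pull-downs of the 2 tissues the share did not pass the same test (adjusted p = 0.317). Without the pull-down highest in this share in each tissue, VsWAT HFD 1 and GAS LFD 3, 1686 features were called in the difference of enrichment, 1362 of them among the 1522.

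**Figure D5:**
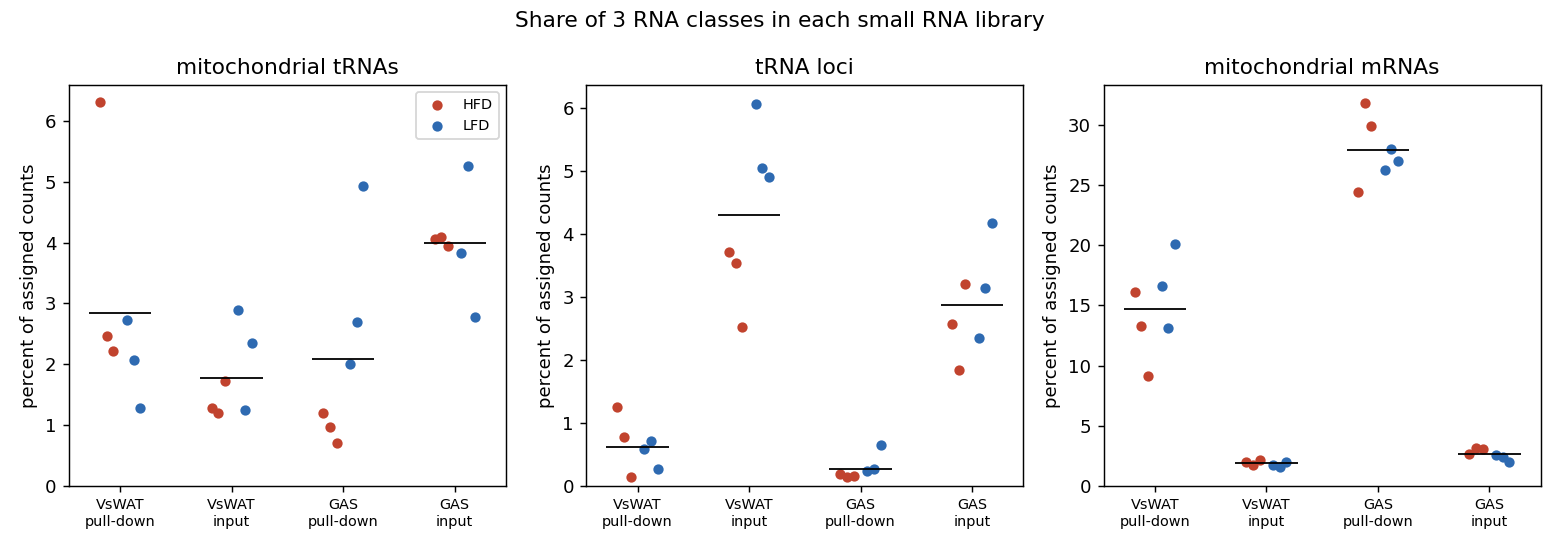
Share of assigned counts, in percent (y axis), of mitochondrial tRNAs, tRNA loci and mitochondrial mRNAs in VsWAT pull-down, VsWAT input, GAS pull-down and GAS input, with HFD in red, LFD in blue and the mean of 6 libraries as a line. Mitochondrial tRNAs lie at 0.706% to 1.20% in GAS pull-downs on HFD and 2.01% to 4.93% on LFD, and mitochondrial mRNAs at 9.14% to 20.2% in VsWAT pull-down and 24.4% to 31.8% in GAS pull-down.

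Mitochondrial mRNAs, from the same genome, rose in GAS pull-down where the mitochondrial tRNAs fell. They made up 9.14% to 20.2% of VsWAT pull-downs and 1.599% to 2.18% of VsWAT inputs, and 24.4% to 31.8% of GAS pull-downs and 2.00% to 3.13% of GAS inputs. The share rose in pull-down in both tissues and was lower in VsWAT than in GAS pull-down (adjusted p = 0.004585 for each, exact permutation). Of 13 genes 7 were tested, and all 7 were higher in pull-down in both tissues, with medians of 2.48 in VsWAT and 2.51 in GAS, and none was called in the difference. mt-Cytb, cytochrome b, averaged 23910 ± 8005 CPM in VsWAT pull-down and 3750 ± 822 in VsWAT input, against 93040 ± 17220 in GAS pull-down and 9083 ± 2776 in GAS input (SD, n = 6 each). Its difference was -0.72 ± 0.37 (adjusted p = 0.22).

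Small nucleolar and spliceosomal RNAs were lower in pull-down in both tissues for most members, and each one called in the difference was less depleted in VsWAT. Small nucleolar RNAs guide chemical modification of ribosomal RNA. Of 98 C/D box snoRNAs 43 were tested, 6 were higher and none was lower (median 0.55), and of 40 H/ACA box snoRNAs 19 were tested, 4 were higher and none was lower (median 1.01), where 7.07% of all features were higher. For the summed share of assigned counts, the difference of enrichment was -0.31 for C/D box snoRNAs, opposite in sign to their median, and 0.91 for H/ACA box snoRNAs. The count of C/D box calls ranged from 2 to 9 when 1 library was left out and was 1 without the 3 VsWAT pairs high in Alb. That of H/ACA box calls was 7 without VsWAT pull-down LFD 2 and 2 without these pairs. Snord23 had 1.63, 3.57 and 7.38 CPM in VsWAT pull-down and 87.1, 102 and 128 in VsWAT input, against 0.561, 1.27 and 3.51 in GAS pull-down and 165, 215 and 285 in GAS input (difference 2.37 ± 0.39). Pull-down lay below input in every library pair of both tissues. Snora31, within Tpt1, was depleted by -4.76 ± 0.35 in VsWAT and -6.90 ± 0.38 in GAS (difference 2.14 ± 0.45), and lost its call without the 3 VsWAT pairs high in Alb (1.47). Rnu5g was not called in VsWAT (-1.05 ± 0.53), with 10.6 ± 6.16 CPM in VsWAT pull-down and 22.3 ± 8.95 in VsWAT input (SD, n = 6 each). In GAS it was lower by -5.10 ± 0.63, with 4.13 ± 6.82 CPM in GAS pull-down and 100 ± 37.7 in GAS input, on 45 counts in GAS pull-downs, with 2 libraries at 0. The difference was 6.17 without GAS pull-down HFD 1, and 3.18 with the call lost without the 3 VsWAT pairs high in Alb. Rnu5g was 1 of 5 higher RNAs among 11 tested spliceosomal, 7SK and related RNAs, where 7.07% of all features were higher. Vaultrc5, the RNA of vault particles, was another at 1.12 ± 0.33, and lost its call without VsWAT pull-down HFD 1 (0.84), GAS pull-down LFD 2 (0.99), GAS pull-down HFD 1 (1.05) or VsWAT input HFD 3 (1.05), and without the 3 VsWAT pairs high in Alb (0.62).

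Few microRNAs passed the test. MicroRNAs pair with messenger RNAs through the seed, bases 2 to 8 of the mature strand. Of 1189 miRNA genes in the files 83 were tested, 3 were higher and 1 was lower. These are smaller shares than the 7.07% and 5.15% of all features. In pull-down against input, 55 were lower in VsWAT and 63 in GAS. Mature strands of the 3 higher genes follow with the seed in capitals, from RefSeq on GRCm38.p6. They show that no seed is shared among these genes, and the counts cover whole genes, not arms.
mmu-miR-361-5p: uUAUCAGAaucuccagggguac
mmu-miR-361-3p: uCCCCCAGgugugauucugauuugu
mmu-miR-221-5p: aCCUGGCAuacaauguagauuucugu
mmu-miR-221-3p: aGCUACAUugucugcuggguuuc
mmu-miR-181a-5p: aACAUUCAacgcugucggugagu
mmu-miR-181a-2-3p: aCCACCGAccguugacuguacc
Mir361 (chromosome X, 113074824 to 113074893, within Chm) had 62 counts in VsWAT pull-downs and 25 in VsWAT inputs, against 23 in GAS pull-downs and 59 in GAS inputs. Its difference was 3.11 ± 0.92, with the call lost without VsWAT pull-down HFD 1 (2.62), VsWAT pull-down LFD 2 (2.45) or GAS pull-down HFD 1 (2.86). Mir221 (chromosome X, 19146294 to 19146388) had 47 counts in VsWAT pull-downs and 128 in VsWAT inputs, against 0 in GAS pull-downs and 58 in GAS inputs, and Mir181a-2 (chromosome 2, 38852735 to 38852810, within Nr6a1) had 9 and 2 in VsWAT pull-downs and inputs, against 5 and 55 in GAS pull-downs and inputs, too few for a fold. The call of Mir221 was lost in 14 of 24 runs that left out 1 library, and that of Mir181a-2 without VsWAT pull-down HFD 2 or VsWAT pull-down LFD 2. Mir328 (chromosome 8, 105308364 to 105308460, within Elmo3) was the lower one at -1.47 ± 0.47, depleted by -6.44 ± 0.37 in VsWAT and -4.97 ± 0.32 in GAS, and lost its call in 14 of the 24 runs (-2.07 to -1.10). None of the 4 was called without the 3 VsWAT pairs high in Alb.

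No feature's difference of enrichment was called between the diets in the main fit, edgeR's quasi-likelihood test with libraries not paired. None of 12454 features was called (0%), with 589 at an unadjusted p under 0.05, and DESeq2 called 19, all larger on HFD, 5 of them mitochondrial tRNAs. The smallest adjusted p in edgeR was that of Gm24265, at 0.0588, whose difference of enrichment was 3.17 on HFD and -0.01 on LFD, a gap of 3.19 ± 0.57. It was called by DESeq2 (adjusted p = 5e-05) and in 4 of the 24 runs that left out 1 library (adjusted p of 0.0142 to 0.0426). Within HFD alone 589 features were called (4.73%, with 3.3% higher and 1.43% lower, 298 without GAS input HFD 1, and 135 without the VsWAT inputs high in Alb, where the 1 HFD input left is assumed to vary like the other groups) and within LFD alone 353 (2.83%, with 1.49% higher and 1.34% lower, 141 without VsWAT input LFD 1, and 100 without the VsWAT inputs high in Alb). Of the 880 features above 0, 874 had the same sign in both diets, and of the 642 below 0, 640 did. These features were called on the mean of both diets, so the like signs follow largely from that choice and are no separate support. Mitochondrial tRNAs differed in count between the diets, with 10 of 12 higher within HFD (median 4.28) and 0 of 12 within LFD (median 0.64). For mt-Tf the difference of enrichment was 4.71 on HFD and -0.16 on LFD, a diet gap of 4.87 ± 0.97 (adjusted p = 0.194), and for mt-Tt 3.96 on HFD and -0.45 on LFD, a gap of 4.41 ± 0.92 (adjusted p = 0.237). DESeq2 called both gaps (adjusted p = 0.000352 for mt-Tf and 0.0013 for mt-Tt), as did edgeR without VsWAT input LFD 2 (adjusted p = 0.0122 and 0.0142), and that of mt-Tt also without VsWAT pull-down HFD 3 (adjusted p = 0.041). tRNA loci had 37 of 175 higher within HFD (median 3.25) and 2 within LFD (median 0.86). Nr4a1 and Sgk1, by contrast, stood at -3.80 and -3.13 on HFD and -4.01 and -3.22 on LFD.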

How the data were processed

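Small RNA of VsWAT and GAS was sequenced as input and pull-down, single-end at 75 bp per the labels. The deposited values are raw counts per feature that the authors made with STAR and HTSeq on mm10, per the submitters' processing notes, with versions and strand setting not given in the sources used here. Counts were checked to be whole numbers, and gene names matched 54723 of 55273 feature IDs. Groups are those of the labels, and no column of values was left unmapped.

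One edgeR 4.0.16 fit (R 4.3.3, limma 3.58.1) covered 24 libraries in 8 group means, with TMM scaling, filterByExpr at a minimum of 10 counts, robust quasi-likelihood F-tests, 2-sided, Benjamini-Hochberg adjustment over all features, and SE as the absolute log2 value over the square root of F. Total RNA was fitted likewise. RNA class shares were compared by exact permutation. The procedure was tested on simulated data.

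Named genes are the 12 largest called differences each way among genes with a full symbol, a mean of at least 20 counts, at least 4 counts in each tissue and fraction and the same sign in both diets (649 higher and 510 lower features met this), up to 4 members of each list by smallest p, 6 label checks, and the features of smallest p in the diet gap (3 are shown). Some genes that this rule names are not reported here. Members, the 39 lists and tests were chosen with earlier results of these data known. The total RNA comparison, and the run without the pull-downs highest in mitochondrial tRNA, were added after seeing the data. Same-numbered input and pull-down libraries were not taken as pairs in the main fit, since the correlation of their deviations was under 0.1 for 1 VsWAT pair, HFD 1. The input of that pair is near identical to the input of HFD 2, and every pull-down correlated best with the input of its own number. Pairing thus remains possible, and a replicate block was run as an alternative. Counting error limits features with few counts, and intervals from counts do not cover the spread between mice. DESeq2 1.42.0 was an alternative.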

Additional observations from a re-analysis of the deposited data

Results flagged for a closer look

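Difference between the tissues was itself the test here, and 1522 features passed it. Genes named above that were called in both tissues in opposite directions deserve a second look, since under TMM scaling their sign of enrichment differed between the tissues. Total-count scaling moved the median enrichment of all features to 0.59 in VsWAT and 0.78 in GAS, so signs near 0 depend on the scaling. Few counts lie behind Wfdc1 and Kcnq5 (4 and 5 in VsWAT pull-downs) and Gprin3 (9 in GAS pull-downs). Lower in VsWAT and higher in GAS pull-down were Cd24a (difference -4.02), Prr33 (-4.02), Igdcc4 (-3.98), Nr4a1 (-3.90), Wfdc1 (-3.78), Kcnq5 (-3.78), Pde4b (-3.52), Epdr1 (-3.21), Mef2c (-2.13) and Hist1h1c (-1.75). Higher in VsWAT and lower in GAS pull-down were Lrp3 (3.71), Apcdd1 (3.64), Thbs1 (3.51), Thbs2 (3.41), Gprin3 (3.41), Dram1 (3.33), Lipe (2.19), Pmp22 (1.85), Plin1 (1.84) and Cidec (1.80). Groups of 3 libraries were too small for a check for outlying samples.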

How the results depend on the processing

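Leaving out 1 library at a time gave 1060 to 1721 calls for the difference of enrichment, 4371 to 5277 for VsWAT and 5344 to 6427 for GAS pull-down against input, 6684 to 7180 and 3188 to 3789 for VsWAT minus GAS in pull-down and in input, 0 to 4 for the diet gap, 298 to 658 within HFD and 141 to 407 within LFD. Without the 3 VsWAT inputs high in Alb (HFD 1, HFD 2, LFD 1), the counts were 699 for the difference, 2831 for VsWAT, 2230 for the tissues in input, 135 within HFD and 100 within LFD. Without both fractions of these 3, they were 541, 2011 and 2336 for the first 3 of these. The cause was not tested.

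Total-count scaling moved the median of all features from 0.04 to -0.20 in the difference, to 0.59 in VsWAT, 0.78 in GAS, 0.71 between pull-downs and 0.91 between inputs. It called 7313 features between inputs, 6443 higher and 870 lower. Its calls were 5160 higher and 1150 lower in VsWAT, 5910 and 1417 in GAS, and 6115 and 1733 between pull-downs. Of the 1522 calls, DESeq2-type scaling shared 1505, total counts 1129, no filter 1235, a minimum of 30 counts 1373, DESeq2 1485 and pooled diets 1309. The diet gap gave 27 calls with no filter and 19 by DESeq2. Summing the near-identical inputs gave 392 calls within HFD.

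Same-numbered input and pull-down correlated at 0.119 to 0.321 in GAS and 0.03 to 0.335 in VsWAT, and 12 of 12 libraries correlated best with their own number, a hint from the data. The replicate block gave 2006 calls for the difference, 5626 for VsWAT, 6511 for GAS, 973 within HFD, 844 within LFD and 5 for the diet gap (Gm24265, Gm24494, Snora15, Snord49b and mt-Tt).

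Of 92 named genes called, 64 kept the call in every run without 1 library, 46 without the 3 VsWAT pairs, 59 without the 3 inputs, 74 under total counts and 72 with diets pooled (among those lost Pck1, Plin1, Cebpa, mt-Tl2 and mt-Tf), and none changed sign. Mir122 and Ckm, not called, did: Mir122 (-0.02) was 0.12 by DESeq2, 0.23 with diets pooled, 1.43 without the 3 inputs, 0.10 with inputs summed and -2.31 to 1.25 without 1 library, and Ckm (-1.57) was 0.50 without the 3 inputs and -2.25 to 0.0217 without 1 library. Log2 differences of class shares ran, without 1 library, from -0.16 to 0.15 for miRNA genes and -0.23 to 0.0628 for Cajal body RNAs between pull-downs, -0.35 to -0.22 for mitochondrial rRNAs and 0.85 to 1.47 for tRNA loci between pull-downs, -1.54 to -0.98 for mitochondrial tRNAs in GAS, and between inputs from -0.41 to -0.28 for miRNA genes, -0.48 to -0.32 for H/ACA box snoRNAs, 0.37 to 0.53 for ribosomal protein genes and 0.45 to 0.71 for tRNA loci. Few counts limit the VsWAT values of muscle genes and the GAS values of liver genes.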
